A study of Mus musculus with 4 samples.

Results

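The genes described here are the matrix metalloproteinases (Mmp), the ADAMTS proteases and their inhibitors, measured by RNA sequencing in mouse prostate. They were taken by symbol from the deposited expression table: every row whose symbol starts with Mmp or Adamts followed by a digit, plus Timp1, Timp2, Timp3, Timp4 and Reck. This gave 47 genes of the 23242 rows, of which 23 are Mmp genes, 19 are Adamts genes and 5 are inhibitors. The libraries were made from prostate tissue (ventral dorsal lobes) of mice of the FVB strain. The tested animals were 2 homozygotes for a TMPRSS2:ERG transgene (mice 26 and 29, ERG positive), and they were set against 2 wild types without it (mice 27 and 28, ERG negative). ERG is a transcription factor of the ETS family, and its human exons had been recombined, behind a GFP cassette flanked by loxP sites, into a BAC (a large bacterial clone) with the TMPRSS2 locus. Cre protein was then injected, and the homozygotes derive from a single sub-line that passed on TMPRSS2:ERG. The labels state no age.

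Matrix metalloproteinases are secreted or membrane-anchored zinc proteases that are made as inactive proenzymes and cut collagens, basement membrane proteins and other substrates outside the cell. ADAMTS proteases are secreted zinc proteases with thrombospondin repeats, and their known substrates include large proteoglycans, procollagens and von Willebrand factor. Tissue inhibitors of metalloproteinases (TIMPs) bind the active site of these enzymes, and Reck is a membrane-anchored inhibitor. In the prostate these genes are shared among epithelium, fibroblasts, smooth muscle and immune cells. In bulk tissue, fewer cells of a type and less RNA per cell cannot be told apart.

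Values are FPKM (fragments per kilobase of transcript, relative to the fragments of the library, as deposited) divided by a scaling factor for each library, called scaled FPKM below. They are per length and so can be compared between genes. The lowest values of genes with 1 annotated transcript put the libraries at about 45.3 to 52.0 megafragments, an estimate only, since the files give no depth. At 1 FPKM or more, 11541 to 11854 genes were detected per library. Markers of luminal epithelium summed to 16530 and 13333 scaled FPKM in homozygotes (mice 26 and 29) and to 13990 and 11183 in wild types (mice 27 and 28), and all 8 of these markers averaged over 1. Without Pbsn, the main part of that sum, the levels were 2144 and 2177 in homozygotes and 1855 and 1706 in wild types, and 1 of the 8 rose, Epcam (log2 difference 0.79, limma adjusted p = 0.0328). Seminal vesicle markers were present as well: 3 of the 5 tested fell, while 3 more hold a missing value. Of these, Svs1 was at 3.83 and 1.05 scaled FPKM in homozygotes and at 3421 and 236 in wild types.

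Of the 5 inhibitors, Timp2 rose and Timp4 fell in TMPRSS2:ERG homozygotes by limma and 3 did not pass, while no protease passed. At an unadjusted limma p under 0.05, 1 Mmp gene was higher and 1 Adamts gene lower. Counts at an unadjusted p, here and below, have no share over all genes beside them and are given as values only. Testing was done with limma on log2(scaled FPKM + 1), for genes averaging 1 scaled FPKM or more, and 20 of the 47 members passed that filter: 9 of 23 Mmp genes, 6 of 19 Adamts genes and all 5 inhibitors. Of these 20, 2 passed an adjusted p of 0.05, 1 higher and 1 lower in homozygotes. Of all 11762 genes tested, 7.65% passed, with 4.65% higher and 3.00% lower, so the share of members called is near that of all genes. The groups did not overlap in 12 of the 20 members (5 higher and 7 lower in homozygotes), against 51.1% of all genes tested (25.3% higher and 25.8% lower). The median log2 difference was -0.11 over the 20 members and -0.0033 over all genes tested. Mmp12, Adamts9 and Adamts15 passed the filter through the mean of 1 genotype alone, so no count over the 20 stands for the whole family.

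**Figure D1:**
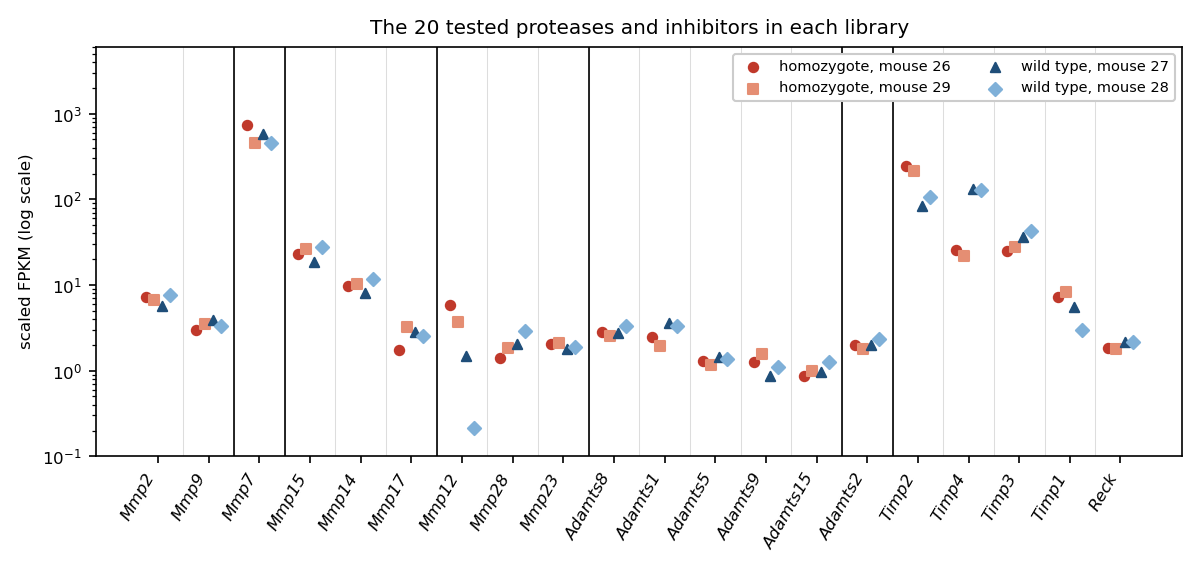
Scaled FPKM (log axis) of the 20 tested members in each library, with genes grouped by role between the black lines (gelatinases, matrilysin, membrane-type, other Mmp, Adamts hyalectanases, procollagen peptidase, inhibitors) and 1 point per mouse. Mmp7 lies far above the other proteases in all 4 libraries, and Timp2 and Timp4 show homozygotes and wild types apart in opposite directions.

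Timp4, a TIMP known for strong expression in a few tissues such as heart, fell in homozygotes. It was at 25.9 and 21.6 scaled FPKM in homozygotes (mice 26 and 29), against 132 and 129 in wild types (mice 27 and 28). Both homozygotes were far below both wild types, and mice of 1 genotype lay close together. The means were 23.7 ± 3.05 in homozygotes and 130 ± 2.31 in wild types (SD, n = 2 each), so that wild types had 5.5 times the level of homozygotes. On the log2 scale it fell by 2.42 (SE 0.128, limma adjusted p = 5.93e-04). The gene (Entrez 110595, chromosome 6, 115245616 to 115251849, mm10, minus strand) lies within Syn2, a synaptic vesicle protein gene on the opposite strand, and no source used here says whether the counting used strand. Syn2 was at 0.880 and 0.946 scaled FPKM in homozygotes and at 1.71 and 5.84 in wild types, well under Timp4 in each library.

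Timp2, the TIMP that also takes part in activation of the Mmp2 proenzyme by Mmp14 at the cell surface, rose in homozygotes. It was at 248 and 212 scaled FPKM in homozygotes and at 83.0 and 107 in wild types. The lower homozygote was still above the higher wild type, and the wild types differed from each other by less than the genotypes did. The means were 230 ± 25.8 in homozygotes and 95.1 ± 17.0 in wild types (SD, n = 2 each), a ratio of 2.42. The log2 difference was 1.27 (SE 0.174, limma adjusted p = 0.0135). Without mouse 26 the difference was 1.16 with an adjusted p of 0.0695, while adjusted p over the 11 refits ran between 0.00214 and 0.0695, and the q-value in the authors' deposited table is 9.62e-07. Timp2 (Entrez 21858, chromosome 11, 118301061 to 118355411, minus strand) overlaps the row BC100451, which was at 0.117 and 0.0816 scaled FPKM in homozygotes and at 0.0375 and 0.0245 in wild types.

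The start regions of these called genes are shown because Timp4 and Timp2 are the members that passed the test. Each is the RefSeq window on GRCm38.p6 that runs 250 bases before to 50 bases after the gene start, on the gene's strand. Capitals mark matches to AGGAAG, a form of an ETS site, to TGANTCA, the letters of an AP-1 site, or to TATAAA, each on either strand. Other forms of an ETS site, among them its shorter core GGAA, were not searched.
Timp4, chr6:115252156-115252455, minus strand: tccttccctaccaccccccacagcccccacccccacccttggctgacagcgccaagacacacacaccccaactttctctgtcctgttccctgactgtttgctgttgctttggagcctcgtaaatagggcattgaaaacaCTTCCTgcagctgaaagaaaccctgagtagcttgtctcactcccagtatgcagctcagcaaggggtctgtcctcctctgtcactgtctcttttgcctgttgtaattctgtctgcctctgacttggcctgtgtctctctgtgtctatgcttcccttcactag
Timp2, chr11:118355362-118355661, minus strand: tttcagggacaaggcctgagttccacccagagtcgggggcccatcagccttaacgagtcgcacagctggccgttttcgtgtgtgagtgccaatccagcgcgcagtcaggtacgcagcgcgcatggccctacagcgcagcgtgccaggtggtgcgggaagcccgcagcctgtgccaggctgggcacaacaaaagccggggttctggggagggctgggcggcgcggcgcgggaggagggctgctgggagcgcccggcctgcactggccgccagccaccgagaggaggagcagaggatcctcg
The RefSeq start of Timp4 lies 356 bases upstream of the start of the deposited row, so its whole window is outside that row, while for Timp2 both starts are the same base. Timp4 holds 1 match to the ETS letters, 111 bases before the RefSeq start and on the strand opposite to the gene, and Timp2 holds no match to any of these motifs in this window. ETS letters of this kind are common: 38.4% of 27025 genes with a start region hold them, as do 15 of the 33 members with one (45.5%).

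The summed level of Timp1 to Timp4 overlapped between genotypes, while its makeup did not. The sum was 307 and 270 scaled FPKM in homozygotes and 257 and 281 in wild types. Timp2 made up 81.0% and 78.6% of that sum in homozygotes, against 32.3% and 38.1% in wild types. Timp4 made up 8.44% and 8.0% in homozygotes, against 51.4% and 45.8% in wild types. Within a library, the ratio of Timp2 to Timp4 does not change when all values are divided by 1 factor. That ratio was 9.60 and 9.82 in homozygotes and 0.628 and 0.831 in wild types. Wild types thus had more Timp4 than Timp2 and homozygotes had more Timp2 than Timp4. The sums, shares and ratios are given as values and were not tested.

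**Figure D2:**
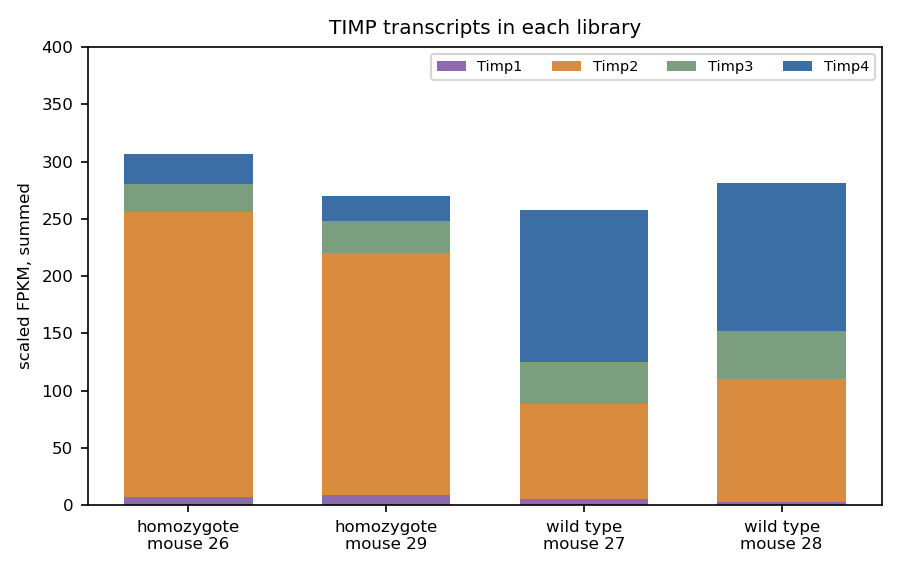
Scaled FPKM of Timp1, Timp2, Timp3 and Timp4, stacked for each library (1 bar per mouse). The bars end between 257 and 307, with Timp2 filling most of the bars of the homozygotes and Timp4 the top part of those of the wild types.

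The remaining inhibitors did not pass the test. Timp3, which binds to the matrix and also inhibits ADAM and ADAMTS proteases, was at 25.2 and 27.9 scaled FPKM in homozygotes and at 36.6 and 42.2 in wild types. Both homozygotes were below both wild types (log2 difference -0.55, SE 0.122, limma adjusted p = 0.0570). Timp1, an inducible TIMP that inhibits several membrane-type enzymes poorly, was at 7.31 and 8.33 scaled FPKM in homozygotes and at 5.50 and 2.97 in wild types. Its groups did not overlap either, but the wild types lay far apart (log2 difference 0.79, SE 0.241, limma adjusted p = 0.132). Without wild-type mouse 27 the adjusted p of Timp1 was 8.37e-04 and that of Timp3 was 0.00793, and without wild-type mouse 28 that of Timp3 was 0.0472. Over the 11 refits, adjusted p ran between 8.37e-04 and 0.389 for Timp1 and between 0.00793 and 0.472 for Timp3, and their q-values in the authors' deposited table are 4.32e-04 and 0.0515. Reck was at 1.85 and 1.80 scaled FPKM in homozygotes and at 2.16 in each wild type (log2 difference -0.16, SE 0.114, limma adjusted p = 0.503). Timp1 lies within Syn1, which is listed at 0 in all 4 libraries, and Timp3 within Syn3, which was between 0.374 and 0.474 scaled FPKM in homozygotes and between 0.452 and 0.626 in wild types.

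Markers of smooth muscle and fibroblasts, cells that also make TIMPs, were read beside these values. All 7 smooth muscle markers lay lower in homozygotes and none passed by limma (5 at an unadjusted p under 0.05, none by the authors' deposited q-value; median log2 difference -0.60), with a summed level of 1326 and 1561 scaled FPKM in homozygotes and 2713 and 1857 in wild types. The 9 fibroblast markers summed to 348 and 290 in homozygotes and to 298 and 317 in wild types, with none past the threshold (1 lower at an unadjusted p under 0.05, none by the authors' deposited q-value). All 7 endothelium markers lay lower in homozygotes too, and none passed by limma (median log2 difference -0.16). Of 5 nerve and Schwann cell markers, 3 were tested and lay lower, and none passed by limma (median log2 difference -0.67). By the authors' deposited q-value, 2 of the 5 were lower. Their sum was 10.6 and 9.86 scaled FPKM in homozygotes and 10.3 and 32.8 in wild types. The 4 basal epithelium markers lay higher, with none past the threshold. The part of these cell types in the inhibitor results was not tested.

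**Figure D3:**
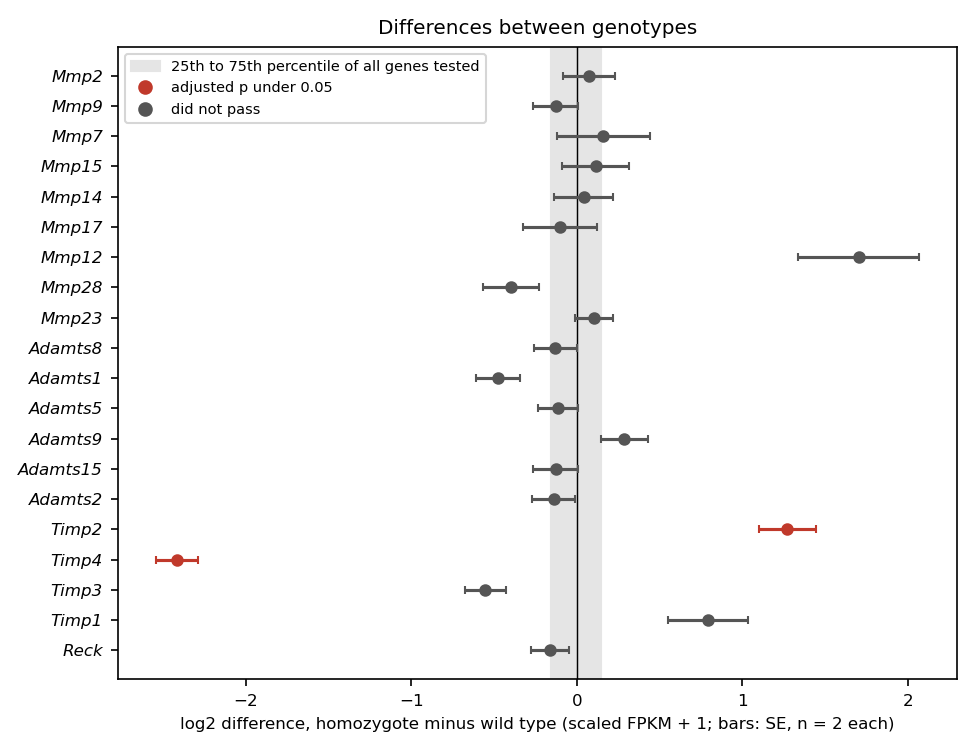
Log2 difference of each tested member (homozygote minus wild type, on log2(scaled FPKM + 1)), with bars of 1 SE from limma (n = 2 each) and a grey band for the interquartile range of all 11762 genes tested. Timp2 at 1.27 and Timp4 at -2.42, in red, passed the threshold. Mmp12 at 1.70 has the widest bar and did not.

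Among proteases the most abundant transcript was that of Mmp7, matrilysin, a small secreted metalloproteinase known from glandular epithelium. It was at 738 and 455 scaled FPKM in homozygotes and at 583 and 461 in wild types. The groups overlapped, with mouse 26 highest and mouse 29 lowest (log2 difference 0.16, SE 0.281, limma adjusted p = 0.822). Mmp7 alone made up 92.8% and 88.2% of the summed Mmp level in homozygotes and 92.6% and 88.4% in wild types. The summed Mmp level was 2.59 and 1.91 times the summed Timp1 to Timp4 level in homozygotes and 2.45 and 1.85 times in wild types, so these ratios also overlapped.

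Mmp12, macrophage metalloelastase, had the largest log2 difference among tested proteases and just missed the threshold. It was at 5.80 and 3.73 scaled FPKM in homozygotes and at 1.49 and 0.216 in wild types. Both homozygotes were above both wild types, and the wild types differed several-fold from each other. The log2 difference was 1.70 (SE 0.364, limma adjusted p = 0.0516), and Mmp12 passed the filter through its level in homozygotes. Over 10 refits, adjusted p ran between 2.94e-04 and 0.131. It was 0.0482 without mouse 29, 2.94e-04 without mouse 27 and 0.0141 without mouse 28, and in the authors' deposited table the log2 fold was 2.66 (q-value 1.71e-10). That table compares 26 of the 47 members, of which 6 have a q-value under 0.05, against 14.2% of all genes it compares: Timp1, Timp2, Mmp12 and Mmp25 higher, and Timp4 and Mmp28 lower in homozygotes. The 8 macrophage markers summed to 80.1 and 71.1 scaled FPKM in homozygotes and to 64.1 and 46.9 in wild types, and without Cd14 to 57.7 and 49.6 in homozygotes and 57.9 and 40.4 in wild types, which overlap. Of them, 1 rose, the receptor gene Cd14 (log2 difference 1.64, limma adjusted p = 9.86e-04), while Csf1r was at 7.16 and 6.11 in homozygotes and 7.21 and 6.29 in wild types. Cd68 was at 5.86 and 5.52 in homozygotes and 4.15 and 3.12 in wild types and did not pass (log2 difference 0.54, limma adjusted p = 0.0965). Mast cell markers moved with genotype too: 5 of the 6 tested rose, and their sum was 181 and 143 scaled FPKM in homozygotes and 11.2 and 13.9 in wild types. The part of either cell type in the Mmp12 values was not tested.

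Mmp12 and Mmp7 belong to a run of 10 neighbouring Mmp genes on chromosome 9 (7272514 to 7699416), within which the table lists no other gene. Of these 10, Mmp12 and Mmp7 passed the filter. Mmp1a, Mmp1b and Mmp10 are listed at 0 in all 4 libraries, and Mmp3, Mmp8, Mmp13, Mmp20 and Mmp27 stayed under 0.15 scaled FPKM in each. Mmp13, the main interstitial collagenase of the mouse, was at 0.144 and 0.0667 scaled FPKM in homozygotes and at 0 and 0.0100 in wild types. Both homozygotes were higher, at values worth roughly 17.7 and 9.68 fragments in homozygotes and 0 and 1.25 in wild types. It was under the filter, and without the filter its limma adjusted p was 0.187. Mmp27 was at 0.0400 and 0.0381 scaled FPKM in homozygotes, roughly 3.49 and 3.94 fragments, and is listed at 0 in both wild types. Mmp3 lay higher as well, at only roughly 1.97 and 2.23 fragments in homozygotes and 1.09 and 0 in wild types. Mmp8 overlapped. Mmp20 went the other way, at 0.0312 and 0.00778 in homozygotes and at 0.129 and 0.0491 in wild types. Those values are worth roughly 4.7 and 1.39 fragments in homozygotes and 17.7 and 7.53 in wild types.

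**Figure D4:**
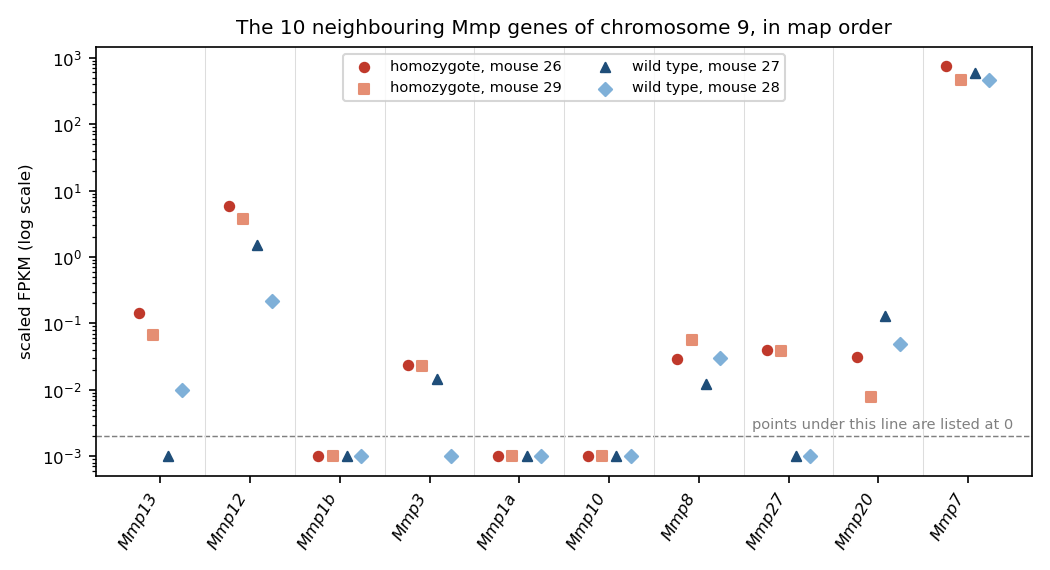
Scaled FPKM (log axis) of the 10 neighbouring Mmp genes of chromosome 9, in map order from left to right, with 1 point per mouse and values listed at 0 drawn under the dashed line. Mmp7, at 455 to 738, and Mmp12, at 0.216 to 5.80, stand above the other 8 genes, none of which reaches 0.15.

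Most start regions of this run hold letters that few or none of the other members hold. The AP-1 letters TGANTCA, which read the same on both strands, are found in 8 of the 10 genes of the run and in none of the 23 members elsewhere that have a start region, against 8.97% of 27025 genes. TATAAA on either strand is found in 9 of the 10 and in 2 of the 23 elsewhere, against 15.7% of all. Kept to the gene's strand shortly before the start, TATAAA is found in Adamts1, Mmp10, Mmp13, Mmp1a, Mmp1b and Mmp7, against 3.0% of all genes. No match overlaps a match to another motif. Windows of the expressed genes of the run are shown with all matches in capitals, for Mmp12 at the start that the deposited row uses.
Mmp12, chr9:7347124-7347423, plus strand: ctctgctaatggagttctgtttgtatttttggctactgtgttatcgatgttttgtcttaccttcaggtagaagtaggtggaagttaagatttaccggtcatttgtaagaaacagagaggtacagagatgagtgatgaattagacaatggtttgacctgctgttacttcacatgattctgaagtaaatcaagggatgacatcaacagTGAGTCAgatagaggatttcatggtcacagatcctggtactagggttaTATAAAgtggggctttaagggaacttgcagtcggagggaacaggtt
Mmp7, chr9:7691840-7692139, plus strand: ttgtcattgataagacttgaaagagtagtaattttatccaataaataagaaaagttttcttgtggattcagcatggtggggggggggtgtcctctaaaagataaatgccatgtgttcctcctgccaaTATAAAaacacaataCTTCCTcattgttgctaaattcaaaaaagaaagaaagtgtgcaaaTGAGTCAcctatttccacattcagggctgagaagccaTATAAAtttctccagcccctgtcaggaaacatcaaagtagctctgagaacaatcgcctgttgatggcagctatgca
The AP-1 letters lie 44 bases before the start in Mmp12 and 63 bases before it in Mmp7, whose RefSeq start is 21 bases upstream of that of the deposited row. Mmp7 also holds the ETS letters on the opposite strand 108 bases before the start, and TATAAA 26 and 123 bases before it. In Mmp12, TATAAA begins after the start, at base 5. Genes of the run that are listed at 0, such as Mmp1a and Mmp10, hold the AP-1 letters as well. A match describes these letters and is no evidence of binding.

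Gelatinases, which cut denatured collagen and basement membrane collagen, did not pass. Mmp2 was at 7.26 and 6.66 scaled FPKM in homozygotes and at 5.62 and 7.62 in wild types (log2 difference 0.07, SE 0.156, limma adjusted p = 0.857). Mmp9 was at 2.96 and 3.51 in homozygotes and at 3.94 and 3.31 in wild types (log2 difference -0.13, SE 0.135, limma adjusted p = 0.682). In both genes the groups overlapped.

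Of 6 membrane-type genes, 3 were tested and none passed. Mmp15, with the highest mean of them, was at 22.9 and 26.2 scaled FPKM in homozygotes and at 18.4 and 27.7 in wild types (log2 difference 0.11, SE 0.202, limma adjusted p = 0.825). Mmp14, the main cell-surface activator of the Mmp2 proenzyme, was at 9.83 and 10.2 in homozygotes and at 8.02 and 11.7 in wild types (log2 difference 0.04, SE 0.177). Set against Timp2, its partner in that step, the level of Timp2 was 25.2 and 20.8 times that of Mmp14 in homozygotes and 10.3 and 9.18 times in wild types. Mmp17, which is held by a glycolipid anchor, was at 1.73 and 3.26 in homozygotes and at 2.80 and 2.51 in wild types.

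Another glycolipid-anchored enzyme, Mmp25, is known from leukocytes and lay under the filter. It was at 0.246 and 0.380 scaled FPKM in homozygotes and at 0.0297 and 0.0575 in wild types, roughly 51.1 and 93.5 fragments in homozygotes and 5.61 and 12.2 in wild types. The groups did not overlap, and Mmp25 has a log2 fold of 2.78 in the authors' deposited table (q-value 3.68e-04). Without the filter its limma adjusted p was 0.0695, so it did not pass. Neutrophil markers, for which 6 of 7 symbols are in the table, were low in both genotypes, with sums of 1.24 and 2.82 scaled FPKM in homozygotes and 1.62 and 1.07 in wild types. Mmp16 was at 1.01 and 0.984 in homozygotes and at 0.566 and 0.723 in wild types, also just under the filter, and Mmp24 is listed at 0 in all libraries.

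Of the other Mmp genes, Mmp28, a secreted enzyme also called epilysin, was at 1.41 and 1.86 scaled FPKM in homozygotes and at 2.07 and 2.88 in wild types. The groups did not overlap, and the difference did not pass (log2 difference -0.40, SE 0.169, limma adjusted p = 0.266), while its q-value in the authors' deposited table is 0.00928. Mmp23 was at 2.02 and 2.08 in homozygotes and at 1.81 and 1.87 in wild types. Mmp11 and Mmp19 lay between 0.619 and 0.979 in homozygotes and between 0.747 and 1.12 in wild types, and Mmp21 is listed at 0.

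Adamts transcripts were low throughout, and none passed by limma or by the authors' deposited q-value, which covers 8 of them. The highest mean among the 19 was 2.86 scaled FPKM, that of Adamts8, at 2.84 and 2.54 in homozygotes and 2.78 and 3.30 in wild types. Among the enzymes that cut versican and related proteoglycans, 5 of 7 were tested. Adamts1 had the largest difference of these, at 2.48 and 1.94 scaled FPKM in homozygotes and 3.56 and 3.33 in wild types. Both homozygotes were lower, and the difference did not pass (log2 difference -0.48, SE 0.133, limma adjusted p = 0.109). Adamts9 was at 1.27 and 1.57 in homozygotes and at 0.856 and 1.12 in wild types (log2 difference 0.29, SE 0.142, limma adjusted p = 0.332). Adamts5 and Adamts15 gave log2 differences of -0.11 and -0.13.

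The procollagen peptidase Adamts2 was at 1.97 and 1.78 scaled FPKM in homozygotes and at 1.98 and 2.36 in wild types (log2 difference -0.14, SE 0.128, limma adjusted p = 0.624). Adamts13, the protease of von Willebrand factor, was at 0.0475 and 0.0611 in homozygotes and at 0.00969 and 0 in wild types, under the filter and worth roughly 9.82 and 15 fragments in homozygotes and 1.82 and 0 in wild types. Adamts10 had the highest mean of the 8 remaining Adamts genes, at 0.284 and 0.347 in homozygotes and 0.428 and 0.306 in wild types. Of the 27 members under the filter, 5 are listed at 0 throughout. Homozygotes lay above both wild types in 8 of the 27 and below both in 7, against 8.53% and 14.8% of the 11448 genes under the filter, which include genes listed at 0 throughout. Fitted without the filter, the 22 that are not at 0 throughout gave no call by limma (6 at an unadjusted p under 0.05).

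Genes that activate or clear these proteases were read from a list of 28, of which 19 were tested. By limma, 6 rose and none fell, against 4.65% higher and 3.00% lower over all genes tested. The list was chosen with earlier results of these data known, so the share that rose can follow from the choice of genes. Of the 6, Pcsk7 rests on wild-type values listed at 0, which may be failed estimates, and the other 5 were detected in all 4 libraries. At an unadjusted p under 0.05, 9 were higher and 2 lower, counts without a share over all genes. The authors' deposited q-value calls 5 of 24 higher and 4 lower, against 1012 higher and 1020 lower of all 14374 genes it compares. The median log2 difference of the 19 was 0.43. Lcn2, a secreted lipocalin that binds Mmp9, was at 290 and 261 scaled FPKM in homozygotes and at 47.0 and 49.1 in wild types (log2 difference 2.49, SE 0.123, limma adjusted p = 5.16e-04). Cd44, a hyaluronan receptor that holds Mmp9 and Mmp7 at the cell surface, was at 23.0 and 22.8 in homozygotes and at 3.69 and 5.82 in wild types (log2 difference 2.08, SE 0.189, limma adjusted p = 0.00350). Its log2 fold in the authors' deposited table is 2.33, though the q-value there is 1, which can stand for a missing test. Plaur, the urokinase receptor, was at 9.89 and 10.4 in homozygotes and at 2.38 and 2.33 in wild types (log2 difference 1.73, SE 0.106, limma adjusted p = 9.86e-04).

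The convertase gene Pcsk5 was at 4.31 and 4.09 scaled FPKM in homozygotes and at 0.697 and 1.05 in wild types (log2 difference 1.48, SE 0.140, limma adjusted p = 0.00403). Bsg, whose product is known as an inducer of metalloproteinases, was at 1015 and 817 in homozygotes and at 383 and 367 in wild types (log2 difference 1.28, SE 0.189, limma adjusted p = 0.0171). The sixth, Pcsk7, was at 13.5 and 13.1 in homozygotes and is listed at 0 in both wild types, whereas its log2 fold in the authors' deposited table is 0.44 (q-value 0.180), a fold that values of 0 cannot give, so its rise is uncertain. The urokinase gene Plau itself did not pass, at 98.4 and 188 scaled FPKM in homozygotes and 225 and 280 in wild types (log2 difference -0.88, limma adjusted p = 0.190). Serpine2, an inhibitor of urokinase, was at 114 and 218 in homozygotes and at 265 and 280 in wild types.

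**Figure D5:**
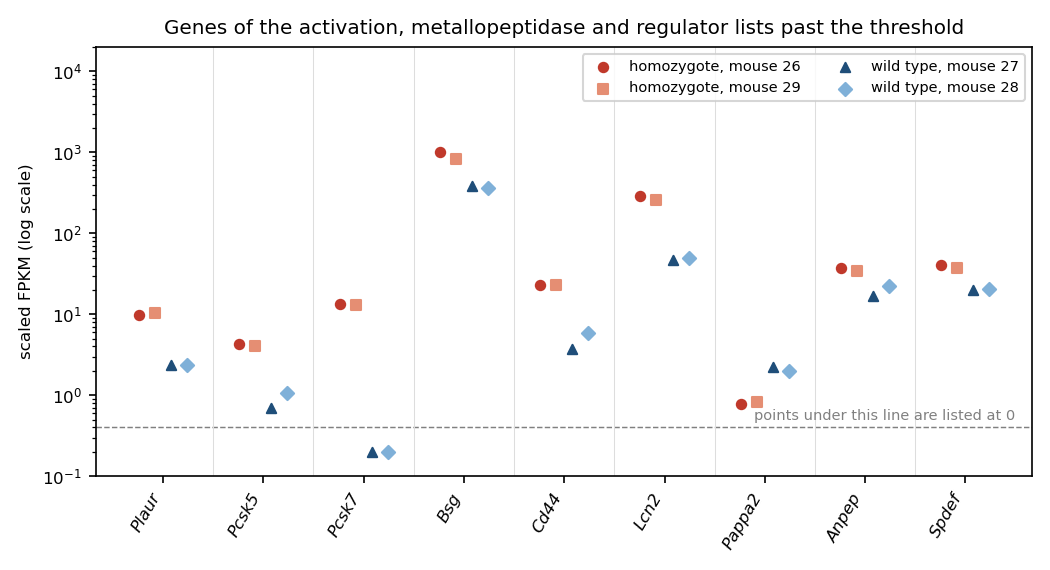
Scaled FPKM (log axis) of the genes of the activation, metallopeptidase and regulator lists that passed the threshold, with 1 point per mouse and values listed at 0 drawn under the dashed line. All but Pappa2 lie higher in the homozygotes, and Pcsk7 is listed at 0 in the wild types.

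Known substrates were read from a list of 29 matrix genes. Of these, 23 were tested and none passed by limma (5 lower at an unadjusted p under 0.05). The authors' deposited q-value calls 6 of 26 lower, against 1020 lower of all 14374 genes it compares. Of the 23, 20 lay below 0 and 3 above it, against 5952 below and 5810 above over all genes tested. The median log2 difference was -0.22, against -0.0033 over all genes tested. This list too was chosen with earlier results of these data known, and a joint fall was not tested. Fn1, fibronectin, was at 5.53 and 5.02 scaled FPKM in homozygotes and at 8.47 and 13.4 in wild types (log2 difference -0.90, limma adjusted p = 0.0677). Vcan, the versican substrate of the Adamts hyalectanases, was at 1.11 and 0.908 in homozygotes and at 0.949 and 1.20 in wild types.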

How the data were processed

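RNA was sequenced from prostate lobes of 4 mice, 2 per genotype, with groups taken from the labels. The authors deposited 1 table with an FPKM value per gene and library, a unit read from the values since the headers name none. TopHat 1.3, Cufflinks 1.3 and mm10 are named in the submitters' processing notes. No source used here gives the annotation, settings or use of strand. Per the file headers, a fold change, a p-value and a q-value were deposited too and serve as an alternative. The q-value is given for 14374 genes, and the fold was read as log2 from its values. The value 99999, held by 7 genes, was read as a code and treated as missing.

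FPKM were divided by median-of-ratios factors, taken over genes at 1 FPKM or more throughout. Genes with a mean of at least 1 were fitted as log2(scaled FPKM + 1), a scale that understates changes of low genes, with limma 3.58.1 in R 4.3.3 (moderated variance with a trend; two-sided tests; Benjamini-Hochberg over 11762 genes; 2 residual degrees of freedom). The fit was tested on simulated data. These were drawn from the variance model of the fit itself, so they do not check whether that model holds for these libraries. Ratios, sums and shares carry no test, and counts at an unadjusted p have no share over all genes beside them.

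Depth was estimated in bins of 0.2 on the log2 scale from the lowest values of genes with 1 transcript in GENCODE M21. Fragment numbers rest on that estimate and the longest transcript, and cover no other error. Starts in the table were raised by 1. Sequences are RefSeq start regions of GRCm38.p6, matched for 33 of 47 members by Entrez number. Members and lists were chosen with earlier results of these data known. Named with values are called members, the highest member and the largest difference of each role group, the inhibitors, and called list genes (at most 5 a list, with Bsg beyond that). Other named members and list genes, among them Mmp14, Mmp25 and Plau, were chosen after their values were seen. A search of protein motifs was not run. The fit was repeated with the scaling left out, after quantile normalization, with 0.1 as pseudocount, unfiltered, at a mean of 5 or more, and with the trend dropped or made robust. It was also repeated without each library in turn, and the authors' q-value was read in its place.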

Additional observations from a re-analysis of the deposited data

How the results depend on the processing

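Counts of members called changed with the library left out and with the authors' q-value, and not with the settings of the fit. The call of Timp4 held under all 12 alternatives (log2 difference between -2.54 and -2.29) and that of Timp2 under 11, being lost without mouse 26. The same 2 members were called with the scaling left out, after quantile normalization, with 0.1 as pseudocount, unfiltered, at a mean of 5 or more, and with the trend dropped or made robust. Over all genes, 547 rose and 353 fell, against 500 and 185 with unscaled FPKM. Leaving out each library gave 1 to 6 members and 355 to 2028 genes in all: 1 and 355 without mouse 26, 3 and 394 without mouse 29, 6 and 2028 without mouse 27, and 4 and 1630 without mouse 28. The lone library is then assumed to vary like the other genotype. The authors' q-value called 6 members and 2034 genes, among them Mmp25, which the filter leaves out here. The direction of some uncalled members turned: without mouse 27, Mmp2 was at -0.12 and Mmp15 at -0.17. Mmp7 was at -0.0043 with quantile normalization, at -0.18 without mouse 26 and at -0.0080 without mouse 28. Left-out libraries moved Mmp2 between -0.12 and 0.27, Mmp15 between -0.17 and 0.40 and Mmp7 between -0.18 and 0.51. With 11 to 12 alternatives for each of 13 named members, 136 of 150 values kept their direction and side of the threshold, 8 newly passed, 1 was lost and 5 turned. The cause was not tested. No paired analysis was possible because the genotypes share no mouse number. Members under about 0.1 scaled FPKM rest on few fragments, which limits the precision of their values.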

Other observations

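Metalloproteinases of related families were also read. Of 19 ADAM and ADAMTS-like genes 12 were tested and none passed by limma (1 higher at an unadjusted p under 0.05; median log2 difference -0.07). The authors' deposited q-value calls 1 of 16 higher and 2 lower, against 1012 higher and 1020 lower of all 14374 genes it compares. The sheddase genes Adam10 and Adam17 were at 36.6 and 38.3 and at 7.27 and 7.84 scaled FPKM in homozygotes, and at 31.8 and 35.3 and at 6.51 and 7.17 in wild types. Of 14 astacins, pappalysins and membrane metallopeptidases 8 were tested. Anpep, an aminopeptidase, rose to 37.3 and 34.3 scaled FPKM in homozygotes, against 16.9 and 22.1 in wild types (log2 difference 0.86, SE 0.150, limma adjusted p = 0.0292). Pappa2, a protease of insulin-like growth factor binding proteins, fell to 0.770 and 0.820 in homozygotes, against 2.20 and 2.01 in wild types (log2 difference -0.79, SE 0.121, limma adjusted p = 0.0191). Mme, neprilysin, was at 32.4 and 24.6 in homozygotes and at 45.8 and 60.9 in wild types and did not pass (log2 difference -0.88, limma adjusted p = 0.0563).

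Among 20 AP-1 and ETS regulators 15 were tested and 1 rose, Spdef, an ETS factor of secretory epithelium, at 40.7 and 37.0 scaled FPKM in homozygotes and 20.1 and 20.7 in wild types (log2 difference 0.90, SE 0.106, limma adjusted p = 0.00848). The AP-1 gene Junb was at 23.6 and 28.1 in homozygotes and at 16.7 and 20.2 in wild types and did not pass. Fosl1 is listed at 0 in all 4 libraries.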
